A study of Mus musculus with 24 samples.

Results

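The genes described here are 8 genes that mark fibroblasts of the adventitia, the outer layer of the aortic wall, and they were followed through 24 RNA-seq libraries of mouse aorta. They were taken by name from a count table of 21959 genes, and all 8 were found and had enough reads to be tested. The surface proteins are Pdgfra, the alpha receptor for platelet-derived growth factor, and Cd248, or endosialin. The extracellular matrix members are Dcn (decorin) and Lum (lumican), both small leucine-rich proteoglycans that bind collagen fibrils, and Dpt (dermatopontin), which binds decorin and collagen. The other secreted or membrane-anchored members are Clec3b (tetranectin), which binds plasminogen, Pi16 (peptidase inhibitor 16) and Serpinf1, or pigment epithelium-derived factor.

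The adventitia is a collagen-rich sleeve around the smooth muscle layers, and fibroblasts are its main resident cells. They make and organise collagen, answer growth factors released in injury, and can turn into contractile, matrix-producing cells. Pdgfra is widely used to sort fibroblasts away from smooth muscle cells and pericytes, which carry the beta receptor instead. Pi16 and Dpt are known from single-cell surveys of mouse tissues as markers of a broadly distributed fibroblast population.

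The 4 groups compared were of male mice. They were 6 ATAD3A-KI mice given β-aminopropionitrile (BAPN), 5 ATAD3A-KI mice on plain water, 7 wild-type (WT) mice given BAPN and 6 WT mice on plain water. BAPN inhibits lysyl oxidase, the enzyme that cross-links collagen and elastin, and is used to induce aortic aneurysm and dissection. It was given from 3 weeks of age at 0.5% (w/v) in the drinking water for 28 days. ATAD3A is a mitochondrial membrane ATPase. The allele that was knocked in, its promoter, the cells it acts in and the strain are not given in the labels. Each library is listed as a separate mouse, and nothing states litters or preparation days.

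Library totals ran from 13127645 to 26490651 counts. Levels are given as CPM, read counts scaled to a common library total with the trimmed mean of M-values (TMM). Atad3a had 230.7 to 1038 CPM in ATAD3A-KI-BAPN libraries and 617.5 to 1629 CPM in ATAD3A-KI libraries, against 24.9 to 44.8 CPM in WT-BAPN libraries and 30.2 to 61.4 CPM in WT libraries, so every knock-in library lay above every WT library. All 10 smooth muscle markers were detected in each group, with summed levels of 10943 to 59143 CPM over the 24 libraries. Some libraries also held other tissue. WT replicate 5 had 21670 CPM of airway epithelium markers and 6535 CPM of skeletal muscle markers, against WT medians of 30.7 and 15.2 CPM. ATAD3A-KI replicates 1, 2 and 5 had 163.9, 2348 and 354.1 CPM of sympathetic neuron markers, against 8.99 and 13.7 CPM in the other 2 libraries of that group. These 4, a set taken from earlier work on these data, are called the libraries rich in other tissue below. The set does not hold ATAD3A-KI-BAPN replicate 3, which had 13695 CPM of adipocyte markers, against 14443 CPM in ATAD3A-KI replicate 5. Nor does it hold ATAD3A-KI replicate 3, which had 235.4 CPM of airway epithelium markers, against a median of 34.8 CPM in its group. ATAD3A-KI-BAPN replicates 2, 3 and 6 had 68.7 to 251.2 CPM of mesothelium markers, against 3.08 to 6.75 CPM in the other 3 libraries of that group.

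In the deposited table Pdgfra (ENSMUSG00000029231) lies on chromosome 5 from 75312953 to 75358876, Cd248 (ENSMUSG00000056481) on chromosome 19 from 5118106 to 5120710, and Clec3b (ENSMUSG00000025784) on chromosome 9 from 122980011 to 122986497. Lum (ENSMUSG00000036446) spans 97400990 to 97408565 and Dcn (ENSMUSG00000019929) 97315471 to 97354005 on chromosome 10, so these 2 proteoglycan genes are neighbours. Pi16 (ENSMUSG00000024011) lies on chromosome 17 from 29536654 to 29549567 and Dpt (ENSMUSG00000026574) on chromosome 1 from 164624213 to 164651835. Serpinf1 (ENSMUSG00000000753), on the reverse strand of chromosome 11 from 75300595 to 75313527, is the only member not on the forward strand. The build of these coordinates is open. In GENCODE M21, antisense genes cover 456 exon bases of Pdgfra (Gm42802) and 222 of Pi16 (AC162182.1), so their counts can hold reads of those genes. Of the 31-base words of the members' transcripts, 5.57% for Pdgfra and 7.4% for Pi16 also occur in other genes, and 0.223% or less for the other 6. No such word is shared by Lum and Dcn.

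Per kilobase of the deposited gene length, Dcn had the highest mean level over the 24 libraries, 180.9 ± 110.5 CPM per kb (SD, n = 24). Dpt followed at 150.2 ± 101.9, Clec3b at 109.1 ± 65.3, Lum at 90.8 ± 81.1 and Serpinf1 at 75.8 ± 33.9 CPM per kb. Pi16 (24.1 ± 18.8), Cd248 (17.2 ± 8.81) and the receptor Pdgfra (5.74 ± 2.76 CPM per kb) stood lowest. The step between Serpinf1 and Pi16 was seen in 24 of 24 libraries. Cd248 exceeded Pdgfra in 22 of 24, Clec3b exceeded Lum in 20 of 24, and Dcn exceeded Dpt and Dpt exceeded Clec3b in 18 of 24 each. Lum exceeded Serpinf1 in 10 of 24 libraries and Pi16 exceeded Cd248 in 13 of 24, so neither pair kept an order. In each group's mean the proteoglycan Dcn ranked 1 and Pdgfra ranked 8. The collagen-binding member Dcn alone gave 42.4 to 64.5% of the summed CPM of the 8 genes.

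Levels spread widely between mice of the same group. Lum had the widest range, 38.5-fold between its lowest library (ATAD3A-KI replicate 5) and its highest (WT-BAPN replicate 5), and Serpinf1 the narrowest, 7.68-fold. The lowest library was WT replicate 4 for Pdgfra, Clec3b, Dcn and Dpt, and the highest was ATAD3A-KI-BAPN replicate 6 for Pdgfra, Clec3b, Pi16 and Dpt. Summed over the 8 genes, WT libraries alone ran from 476.3 CPM (replicate 4) to 4599 CPM (replicate 2). In whole-tissue RNA, fewer fibroblasts and less RNA per fibroblast cannot be told apart.

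**Figure D1:**
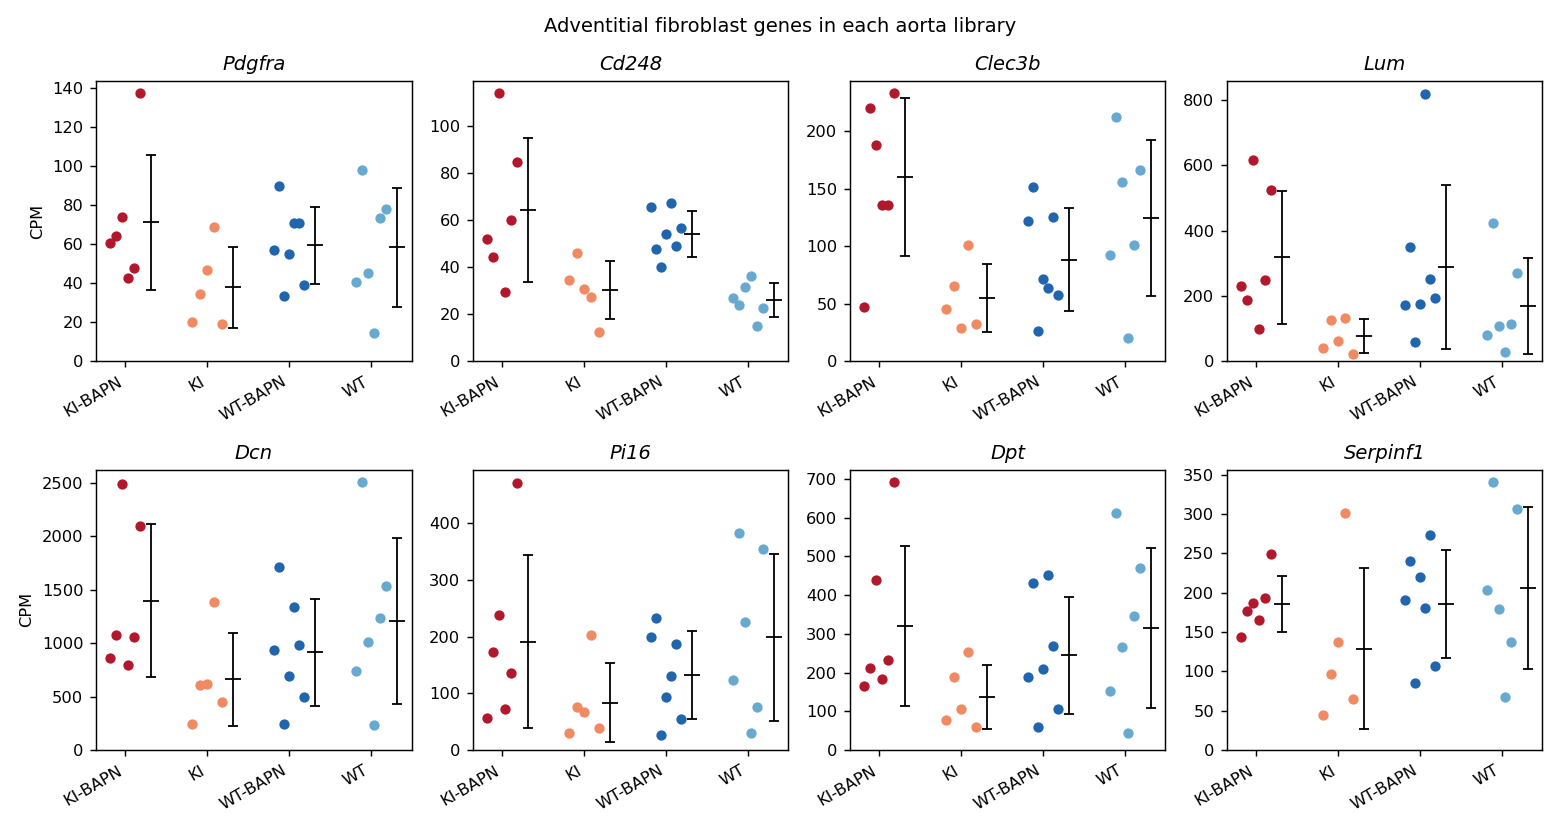
Levels of the 8 genes in CPM on linear axes from 0, with 1 point per library and the mean ± SD beside each group of 6 ATAD3A-KI-BAPN (KI-BAPN), 5 ATAD3A-KI (KI), 7 WT-BAPN and 6 WT libraries. Cd248 is the gene whose WT-BAPN libraries all lie above all WT libraries, while the other 7 genes overlap between groups.

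BAPN in the WT aorta was the comparison with the most genes called, 873 of 14216 tested (6.14%, 489 higher and 384 lower) at an adjusted p under 0.05. Called here means a Benjamini-Hochberg adjusted p from edgeR's quasi-likelihood test under that threshold, over all genes tested. Of the 8 fibroblast genes 1 was called, Cd248, which rose about 2-fold on BAPN. The other 7 were not called, and their log2 changes lay on both sides of 0.

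Cd248 encodes endosialin, a transmembrane glycoprotein of fibroblasts and pericytes that binds matrix proteins. It had a lowest level of 40.0, a median of 54.0 and a highest of 67.4 CPM in the 7 WT-BAPN libraries, against a lowest of 15.2, a median of 25.4 and a highest of 36.4 CPM in the 6 WT libraries. The groups did not overlap, which was also true of 2.12% of all genes tested in this comparison. Cd248 averaged 54.3 ± 9.78 CPM (SD, n = 7) on BAPN and 26.1 ± 7.36 CPM (SD, n = 6) on water. The log2 change was 1.06 ± 0.28 (SE), with a 95% interval of 0.48 to 1.64 and an edgeR adjusted p of 0.0306, a 2.08-fold difference. The gene ranked 464 by p among the genes tested.

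The call on Cd248 stood near the threshold. It was lost without WT replicate 1 (edgeR adjusted p = 0.059), 2 (0.0539) or 6 (0.0512), and without WT-BAPN replicate 4 (0.0517) or 5 (0.0653). The log2 change lay between 0.94 and 1.18 with any 1 of the 13 libraries left out, and it was 0.94 ± 0.25 (edgeR adjusted p = 0.0231) without the 4 libraries rich in other tissue.

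Of the matrix members none was called, and their differences from Cd248 were not tested. Dcn had 240.7 to 1711 CPM (median 937) in WT-BAPN libraries, against 231.7 to 2508 CPM (median 1121) in WT libraries. The groups overlapped over almost their whole range, and the log2 change was -0.41 ± 0.47 (edgeR adjusted p = 0.623). Lum, its neighbour on chromosome 10, had 58.0 to 816.9 CPM (median 193.7) on BAPN and 29.1 to 421.5 CPM (median 110.6) on water, a log2 change of 0.76 ± 0.60 (interval -0.47 to 2.00, edgeR adjusted p = 0.444), and 6 of 7 BAPN libraries exceeded the WT mean. Without WT-BAPN replicate 5, the highest library, the Lum change was 0.24. Dpt, whose protein links decorin and collagen, had 58.5 to 452.0 CPM (median 209.2) on BAPN and 45.5 to 611.8 CPM (median 305.8) on water, a log2 change of -0.36 ± 0.52.

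Pi16, the peptidase inhibitor, had 25.9 to 233.2 CPM (median 130.9) in WT-BAPN libraries, against 30.8 to 383.8 CPM (median 175.2) in WT libraries. For Clec3b these were 26.6 to 150.9 CPM (median 71.4) on BAPN and 20.5 to 211.6 CPM (median 128.3) on water. In both genes 2 of 7 BAPN libraries exceeded the WT mean, and the log2 changes were -0.59 ± 0.59 for Pi16 and -0.50 ± 0.44 for Clec3b. The receptor Pdgfra had 33.3 to 89.9 CPM (median 56.8) on BAPN and 14.4 to 97.8 CPM (median 59.4) on water, a log2 change of 0.03 ± 0.37. Serpinf1 had 84.9 to 273.9 CPM (median 191.3) on BAPN and 68.0 to 340.5 CPM (median 191.3) on water, with equal medians and a log2 change of -0.15 ± 0.38. The 95% intervals of these 7 genes all held 0, and they were wide: for Pi16 the interval was -1.81 to 0.63, and for Pdgfra -0.74 to 0.79. The median over the 8 genes was -0.26, beside -0.04 over all genes tested.

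The same question in ATAD3A-KI mice gave 5 of 14216 genes called (0.0352%), and none of the 8 was among them. At an unadjusted p under 0.05 there were 1436 genes, 5 of the 8 members included. All 8 log2 changes were above 0, with a median of 1.14 against -0.03 over all genes tested, where 46.3% of changes were above 0. Apart from Cd248 the members varied together between mice of a group (below), so these signs are not 8 separate observations. The same holds for the counts of signs in the other comparisons. ATAD3A-KI-BAPN libraries overlapped ATAD3A-KI libraries for each of the 8 genes, and 0.647% of all genes tested did not overlap.

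Lum, the collagen-binding proteoglycan, had the largest value of the 8. It had 99.6 to 616.6 CPM (median 238.4) in the 6 ATAD3A-KI-BAPN libraries, against 40.1, 127.4, 62.5, 134.2 and 21.2 CPM in the 5 ATAD3A-KI libraries. In 5 of the 6 BAPN libraries Lum exceeded every library on water. The log2 change was 2.04 ± 0.68, with a 95% interval of 0.63 to 3.45 and an edgeR adjusted p of 0.28.

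Clec3b, which encodes the plasminogen-binding protein tetranectin, had 47.2 to 232.7 CPM (median 162.0) on BAPN, against 45.4, 65.3, 29.4, 101.0 and 32.4 CPM on water. Replicate 1 of ATAD3A-KI-BAPN lay within the range on water and the other 5 lay above it. The log2 change was 1.55 ± 0.50 (interval 0.51 to 2.59, edgeR adjusted p = 0.259).

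Cd248 had 29.6 to 113.9 CPM (median 56.0) on BAPN, against 34.5, 46.2, 30.6, 27.5 and 12.5 CPM on water. Its log2 change of 1.08 ± 0.30 was close in size to that in WT, but the mice varied more, with an SD of 30.5 CPM in ATAD3A-KI-BAPN and 9.78 CPM in WT-BAPN. The edgeR adjusted p was 0.181, and DESeq2 gave 0.0406, the 1 fit that called a member in ATAD3A-KI.

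Dpt had 164.3 to 691.7 CPM (median 223.1) in ATAD3A-KI-BAPN, against 79.0, 189.6, 105.6, 252.5 and 58.6 CPM in ATAD3A-KI. Pi16 had 56.7 to 471.7 CPM (median 154.0) on BAPN, against 30.9, 75.8, 67.8, 203.2 and 39.4 CPM on water. In both genes 2 of 6 BAPN libraries exceeded every library on water, and replicate 4 was the highest on water. Pdgfra had 42.7 to 137.2 CPM (median 62.4) on BAPN, against 20.2, 34.2, 46.9, 68.7 and 19.2 CPM on water, and all 6 BAPN libraries lay above the mean on water. Serpinf1 had 143.3 to 249.5 CPM (median 181.8) on BAPN, against 44.3, 97.0, 137.0, 301.3 and 65.1 CPM on water, so that ATAD3A-KI replicate 4 exceeded every BAPN library.

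For the remaining members the log2 changes in ATAD3A-KI were 1.23 ± 0.58 for Dpt, 1.20 ± 0.66 for Pi16, 1.08 ± 0.53 for Dcn, 0.91 ± 0.41 for Pdgfra and 0.53 ± 0.42 for Serpinf1. Their edgeR adjusted p lay between 0.459 and 0.683. Dcn averaged 1396 ± 716 CPM (SD, n = 6) on BAPN and 661.7 ± 432.8 CPM (SD, n = 5) on water, so that the distance between the means was about the SD of the BAPN group. Without the 3 ATAD3A-KI-BAPN libraries rich in mesothelium, the 8 log2 changes ran from 0.08 (Pi16) to 1.32 (Lum) with a median of 0.48. The libraries left out had the highest sums of the 8 genes in their group (2152, 4348 and 4490 CPM). ATAD3A-KI replicate 2, with 48.8 CPM of mesothelium markers, was kept, so a lower change was built into that fit. Without the 4 libraries rich in other tissue, the 8 changes ran from -0.24 (Serpinf1) to 1.69 (Lum) with a median of 0.67. On water this left 2 ATAD3A-KI libraries, replicates 3 and 4. Replicate 4 had the highest sum of the 8 genes in its group (2478 CPM), so a lower change was built into this fit also.

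**Figure D2:**
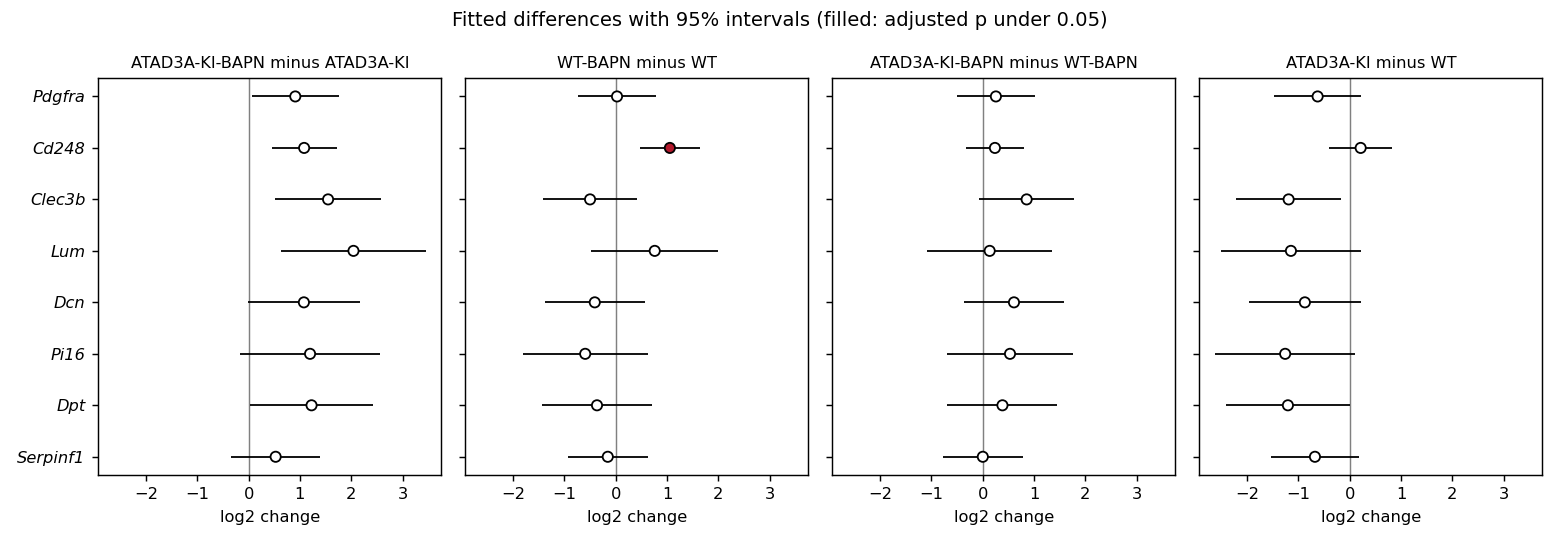
Fitted log2 changes of the 8 genes with 95% intervals (horizontal lines) in the 4 comparisons, each named above its panel, where a value above 0 means higher in the first-named group. The filled point is Cd248 for WT-BAPN minus WT at 1.06, and open points have an adjusted p of 0.05 or more.

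Between genotypes on plain water, 27 of 14216 genes were called (0.19%), none of the 8 among them, by edgeR or by DESeq2. At an unadjusted p under 0.05 there were 2407 genes, Clec3b and Dpt included. Of the 8, 7 had log2 differences below 0 and Cd248 had 0.22 ± 0.30, with a median of -1.01 against -0.01 over all genes tested. Pi16 (-1.25 ± 0.66), Dpt (-1.20 ± 0.58), Clec3b (-1.19 ± 0.50) and Lum (-1.14 ± 0.66) lay lowest, with edgeR adjusted p of 0.222 to 0.388. Each of the 8 genes overlapped between ATAD3A-KI and WT libraries, whereas 2.38% of all genes tested did not.

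Clec3b, the member with the smallest p here, averaged 54.7 ± 29.5 CPM (SD, n = 5) in ATAD3A-KI and 124.6 ± 67.4 CPM (SD, n = 6) in WT. All 5 ATAD3A-KI libraries lay below the WT mean, but WT replicate 4, at 20.5 CPM, lay below all of them. Serpinf1, a secreted protein that restrains vessel growth, averaged 129.0 ± 102.5 CPM in ATAD3A-KI, where replicate 4 had 301.3 CPM, and 205.9 ± 102.6 CPM in WT. Its log2 difference was -0.68 ± 0.42, and that of Pdgfra -0.62 ± 0.41. Without the 4 libraries rich in other tissue, which left 2 ATAD3A-KI libraries, the values ran from -0.99 (Clec3b) to 0.07 (Pdgfra), with a median of -0.50 and 6 of 8 below 0.

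Between genotypes on BAPN, 1 gene was called (0.00703%), and it was none of the 8. None of the 8 had an unadjusted p under 0.05, beside 1983 of all genes, and DESeq2 called none of them. The 8 log2 differences were above 0, from 0.0042 ± 0.38 for Serpinf1 to 0.86 ± 0.44 for Clec3b (edgeR adjusted p of 0.39 to 0.998), and the median was 0.32. Their 95% intervals all held 0 and were wide, reaching 1.78 for Clec3b and 1.75 for Pi16. Groups overlapped for all 8 genes, and 0.218% of all genes tested did not overlap. Without the 3 ATAD3A-KI-BAPN libraries rich in mesothelium, 7 of the 8 values lay below 0, with a median of -0.22, and Clec3b was at 0.27. That fit left out libraries of 1 group and kept WT-BAPN replicates 2, 5 and 6, which had 140.1, 235.5 and 106.4 CPM of mesothelium markers, so a lower difference was built into it. With the mesothelium score as a covariate all 8 lay above 0, with a median of 0.40.

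The interaction asked whether the BAPN difference itself differed between genotypes. None of the 14216 genes was called by edgeR (0%), with 2111 at an unadjusted p under 0.05 (Clec3b and Dcn among them), 14 genes called by DESeq2 and 4 by limma voom. For Cd248 the difference was 0.03 ± 0.41 with a 95% interval of -0.82 to 0.87, so a difference between genotypes of up to about that size in either direction was within the error. The other 7 had values above 0, and Clec3b had the highest at 2.05 ± 0.67 (interval 0.67 to 3.42, edgeR adjusted p = 0.28). Pi16 (1.79 ± 0.88), Dpt (1.59 ± 0.77), Dcn (1.48 ± 0.71) and Lum (1.28 ± 0.88) followed, then Pdgfra (0.88 ± 0.55) and Serpinf1 (0.68 ± 0.56). The median of the 8 was 1.38, against 0.01 over all genes tested, 0.62 without the 3 libraries rich in mesothelium and 1.22 when the mesothelium score was a covariate. The fit without those 3 left out only ATAD3A-KI-BAPN libraries, so a lower interaction was built into it. The interaction values and those of both BAPN comparisons and of the genotype comparisons share the same libraries and are not independent of each other.

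Apart from Cd248, the genes moved up and down together from mouse to mouse. Over the 24 libraries the 21 pairs among Pdgfra, Clec3b, Lum, Dcn, Pi16, Dpt and Serpinf1 had Pearson's r of 0.69 to 0.95 on log2 CPM, with a median of 0.85. With the group means subtracted the median was again 0.85, so this was a variation within groups. Dcn and Dpt, a pair of proteins that bind each other, had the highest r, 0.95. The 7 pairs with Cd248 had r of 0.18 to 0.62 (median 0.25), and 0.06 to 0.43 (median 0.14) with the group means subtracted. All libraries share the tissue sampling and the scaling, and these r are descriptions.

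**Figure D3:**
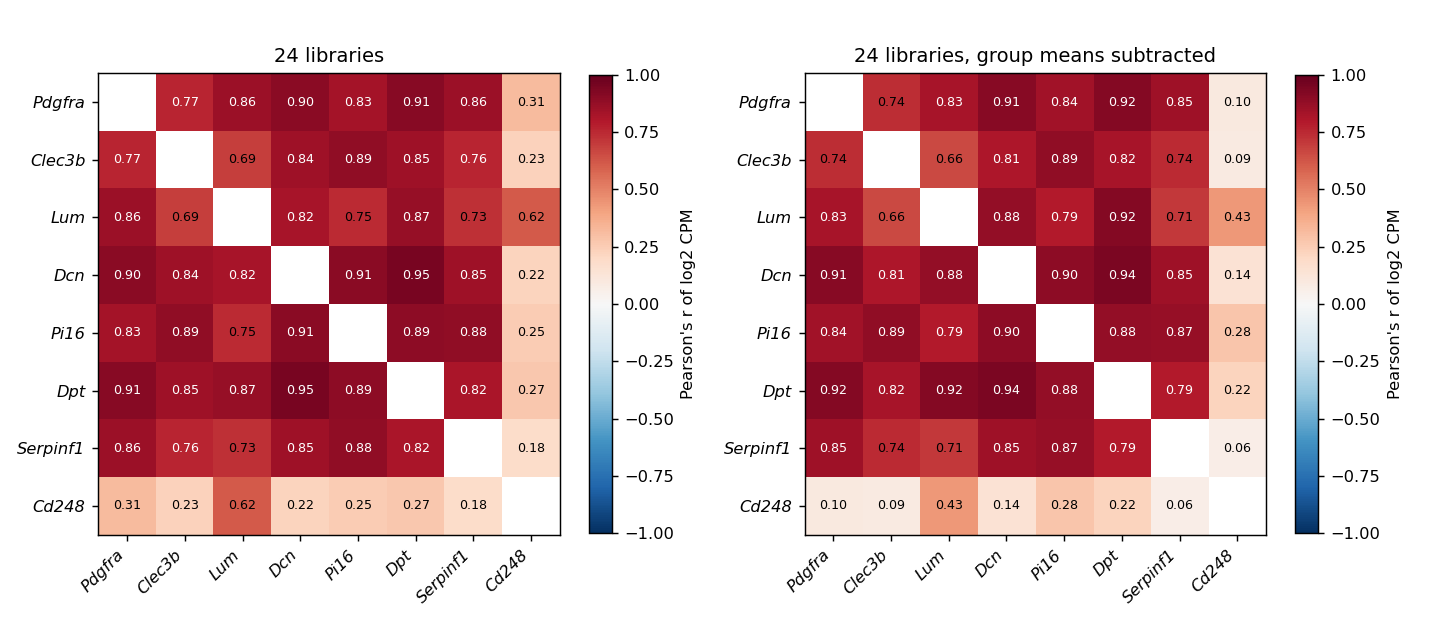
Pearson's r of log2 CPM between the 8 genes over 24 libraries, as measured (left) and with the mean of each group subtracted (right), on a colour scale from -1 to 1. The 21 pairs without Cd248 lie between 0.69 and 0.95 on the left, and the row of Cd248 is pale in both panels.

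Cd248 parted from the other 7 most clearly in WT mice on plain water. In WT replicate 4 the mean log2 CPM of the 7 was the lowest of all libraries, 5.36, yet Cd248, at 36.4 CPM, was the highest of its group. In WT replicate 2 the 7 averaged 8.66, and Cd248 had 24.0 CPM. The log2 level of Cd248 minus the mean of the 7 averaged -1.90 ± 0.43 in ATAD3A-KI-BAPN (SD, n = 6), -1.68 ± 0.88 in ATAD3A-KI (SD, n = 5), -1.58 ± 0.74 in WT-BAPN (SD, n = 7) and -2.73 ± 1.42 in WT (SD, n = 6). The WT values alone ran from -4.07 to -0.17, which spans those of the other 3 groups.

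**Figure D4:**
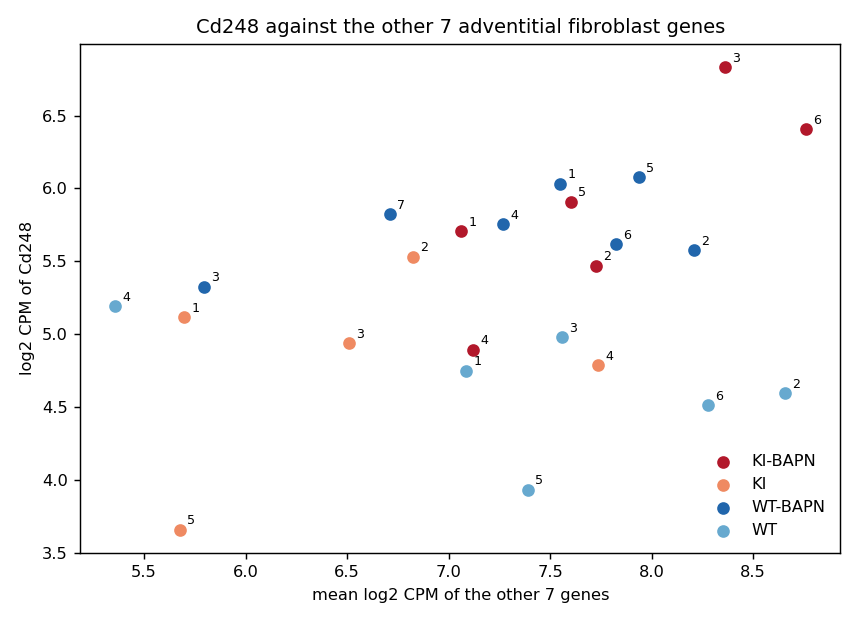
Log2 CPM of Cd248 (vertical) against the mean log2 CPM of the other 7 genes (horizontal), with 1 point per library, coloured by group and numbered by replicate. At a similar level of the other 7 genes, the WT-BAPN points lie above the WT points, and WT replicate 4 is at the far left with 5.36 on the horizontal axis.

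The genes outside the set whose levels were most like the mean of the 8 (mean of standardised log2 CPM, 24 libraries) were Adgrd1, an adhesion G protein-coupled receptor (r = 0.957), Rnase4, a secreted ribonuclease (0.925), Olfml3 (0.916), Emilin2, a matrix glycoprotein (0.913), and Scara5, a ferritin receptor (0.910). Srpx, Fbln1 (fibulin 1), Tmem119, Bicc1 and Cpxm1 followed at 0.890 to 0.906. With group means subtracted 5 of these 10 stayed among the 10 highest, and 3 stayed without the 4 libraries rich in other tissue. The genes most like each member alone were Rnase4 and Adgrd1 for Pdgfra (0.932 and 0.908), Scara5 and Bace2 for Clec3b (0.900 and 0.879), Rnase4 and Flrt2 for Lum (0.916 and 0.904), and Fbln1 and Abca9 for Dcn (0.945 and 0.920). They were Scara5 and Fbln1 for Pi16 (0.943 and 0.938), Adgrd1 and Ackr2 for Dpt (0.927 and 0.920), and Tspan11 and Tgfbi for Serpinf1 (0.908 and 0.890). Cd248 was again apart, since its closest genes were Igsf3 and Igfbp2, an insulin-like growth factor binding protein (0.859 and 0.846).

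Since 7 of the members varied together, their promoters were read where RefSeq had a window (GRCm38.p6, 250 bases before to 50 after the annotated start), which was so for 4 of the 8. Each was searched on both strands for TATAAA, the core of a TATA box. The same was done for TGANTCA, a motif of AP-1 factors. The other motifs searched were CAGCTG, an E-box, and GGAATG, a motif of TEAD factors. No 2 matches overlapped. Dpt and Pi16 are shown because they held matches, which are in capitals. Dpt lies at chr1:164796413-164796712 on the forward strand, with CAGCTG 200 bases before and 6 bases after the start and TATAAA 12 bases after it. Pi16 lies at chr17:29318632-29318931 on the forward strand, with CAGCTG 23 bases after the start.
Dpt: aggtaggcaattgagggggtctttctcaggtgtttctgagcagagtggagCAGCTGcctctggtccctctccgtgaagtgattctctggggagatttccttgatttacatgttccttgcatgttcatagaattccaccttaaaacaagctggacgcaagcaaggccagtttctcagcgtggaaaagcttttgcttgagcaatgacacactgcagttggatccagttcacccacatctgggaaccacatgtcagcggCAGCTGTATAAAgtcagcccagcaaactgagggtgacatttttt
Pi16: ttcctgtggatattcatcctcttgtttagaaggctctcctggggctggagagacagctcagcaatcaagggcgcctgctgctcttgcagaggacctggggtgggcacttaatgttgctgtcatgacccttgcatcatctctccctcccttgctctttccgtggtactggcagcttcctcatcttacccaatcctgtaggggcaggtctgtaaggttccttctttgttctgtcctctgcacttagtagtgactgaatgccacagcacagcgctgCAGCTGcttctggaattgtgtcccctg
CAGCTG occurs in 16.3% of 32851 RefSeq windows of this length and TATAAA in 13.6%, TGANTCA in 7.81% and GGAATG in 14.7%. In the windows of Pdgfra (chr5:75152001-75152300, forward) and Serpinf1 (chr11:75422574-75422873, reverse) none of the 4 motifs was found. No motif was therefore common to the 4 windows, and a match is a run of letters, not a measured site.

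The wider fibroblast programme was read from gene lists. Of 20 other fibroblast markers none was called in any comparison by edgeR. At an unadjusted p under 0.05 there were 4 of 20 on BAPN in ATAD3A-KI, beside 10.1% of all genes, and 2 of 20 on BAPN in WT, beside 25% of all genes. In ATAD3A-KI 18 of the 20 had log2 changes above 0 on BAPN, with a median of 0.78, and in WT 9 of 20 did, with a median of -0.01. The smallest adjusted p in ATAD3A-KI belonged to Col14a1, a fibril-associated collagen (0.998, edgeR adjusted p = 0.303), and Cd34, a sialomucin (1.23, 0.317). Between genotypes on plain water 19 of the 20 lay below 0, with a median of -0.62. The mean log2 CPM of the 20 had r = 0.980 with that of the 8 over the 24 libraries. Genes of a list were read in the same libraries, so counts within a list, here and below, are not counts of separate observations.

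Genes of activated, matrix-producing fibroblasts were read next, on BAPN in WT. Of 12 tested 1 rose, beside 6.14% of all genes called: Cthrc1, a secreted protein of injured arteries (4.05 ± 1.04, edgeR adjusted p = 0.0274), and 11 of 12 lay above 0 with a median of 0.98, beside 46.6% of all genes above 0. Cthrc1 had 1.71 to 102.5 CPM (median 7.00) in WT-BAPN libraries, with the highest in replicate 5. In WT libraries it had 0.645 to 2.50 CPM (median 1.21), so the groups overlapped. Of 10 fibrillar collagens 2 rose, Col5a2 (1.16 ± 0.27, edgeR adjusted p = 0.0207) and Col5a1 (1.10 ± 0.33, edgeR adjusted p = 0.0499), with a median of 0.88 for the list. Col5a2 had 632.2 to 970.7 CPM on BAPN and 127.6 to 483.7 CPM on water. These groups did not overlap, which was also true of 2.12% of all genes tested. The lowest WT value was that of replicate 5, the library with airway markers. On BAPN in ATAD3A-KI none of these 22 genes was called by edgeR. At an unadjusted p under 0.05 there were 6 of the 12 activated fibroblast genes and none of the collagens, beside 10.1% of all genes. The medians were 1.25 for the activated fibroblast genes and 0.43 for the collagens. Over the 24 libraries Cd248 had r of 0.713 with the mean of the activated fibroblast genes, against 0.442 with the mean of the 20 other fibroblast markers. Group means were not subtracted here. Like Cd248, the activated fibroblast mean was higher on BAPN, 5.27 against 4.24 in ATAD3A-KI and 5.19 against 4.36 in WT, so these r hold group differences.

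Relatives of Dcn and Lum were read from a list of other small leucine-rich proteoglycans, whose mean log2 CPM had r = 0.832 with that of the 8 over the 24 libraries. Of 11 tested small leucine-rich proteoglycans none rose and 1 fell on BAPN in WT, where 6.14% of all genes were called. The 1 that fell was Chad, a cartilage proteoglycan (-3.45 ± 1.02, edgeR adjusted p = 0.0465). Chad had 0.733 to 6.67 CPM in WT-BAPN libraries, against a WT median of 2.71 CPM and 186.4 CPM in WT replicate 5, the library with airway markers, so that its mean in WT rested on 1 mouse. Bgn (biglycan) had a log2 change of 0.46 and Fmod (fibromodulin) of -0.16, neither called. On BAPN in ATAD3A-KI, where all 8 members lay above 0, 5 of these 11 did (median -0.19), and none was called. Of the ligands and the beta receptor of the platelet-derived growth factor system, partners and relative of Pdgfra, none of 5 was called in any comparison by edgeR, and 2 had an unadjusted p under 0.05 on BAPN in WT, where 25% of all genes did. On BAPN in WT the ligand gene Pdgfc had the smallest adjusted p (0.59, edgeR adjusted p = 0.0906) and the beta receptor Pdgfrb had 0.51 (0.191).

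Markers of some other cell types moved with the fibroblast genes. The mean log2 CPM of 10 macrophage markers had r = 0.736 with that of the 8 over 24 libraries, 10 mesothelium markers had 0.632, and 10 smooth muscle markers had -0.411. Summed macrophage markers ran from 234.4 to 2470 CPM in ATAD3A-KI-BAPN, 82.7 to 284.3 CPM in ATAD3A-KI, 124.1 to 1123 CPM in WT-BAPN and 63.2 to 2470 CPM in WT. None of the 10 was at 0 throughout a group. In ATAD3A-KI all 10 macrophage markers had log2 changes above 0 on BAPN, with a median of 2.29. All 10 had an unadjusted p under 0.05, beside 10.1% of all genes, but none was called by edgeR.

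Mesothelium, the cell sheet over the pleura and the abdominal cavity, shares some genes with fibroblasts. Its 10 summed markers ran from 3.08 to 251.2 CPM in ATAD3A-KI-BAPN, 3.11 to 48.8 CPM in ATAD3A-KI, 2.36 to 235.5 CPM in WT-BAPN and 2.58 to 815.1 CPM in WT, and none was at 0 throughout a group. The highest WT sum was that of replicate 5, the library with airway markers. Its mean log2 CPM of the 10 markers, 2.90, was below that of WT-BAPN replicate 5, 4.14. The 2 ATAD3A-KI-BAPN libraries with the highest sums of the 8 fibroblast genes, replicate 6 (4490 CPM) and replicate 3 (4348 CPM), also had the highest mesothelium sums of their group (141.3 and 251.2 CPM) and the highest macrophage sums (1434 and 2470 CPM). With the mesothelium score as a covariate, the median log2 change of the 8 on BAPN in ATAD3A-KI was 0.79, and Cd248 on BAPN in WT had 1.01 ± 0.27 (edgeR adjusted p = 0.0316). The adipocyte score had r = 0.123 with the 8 genes. With it as a covariate Cd248 on BAPN in WT had 1.03 ± 0.28 (edgeR adjusted p = 0.038). The parts of macrophages and of smooth muscle in these results were not tested.

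**Figure D5:**
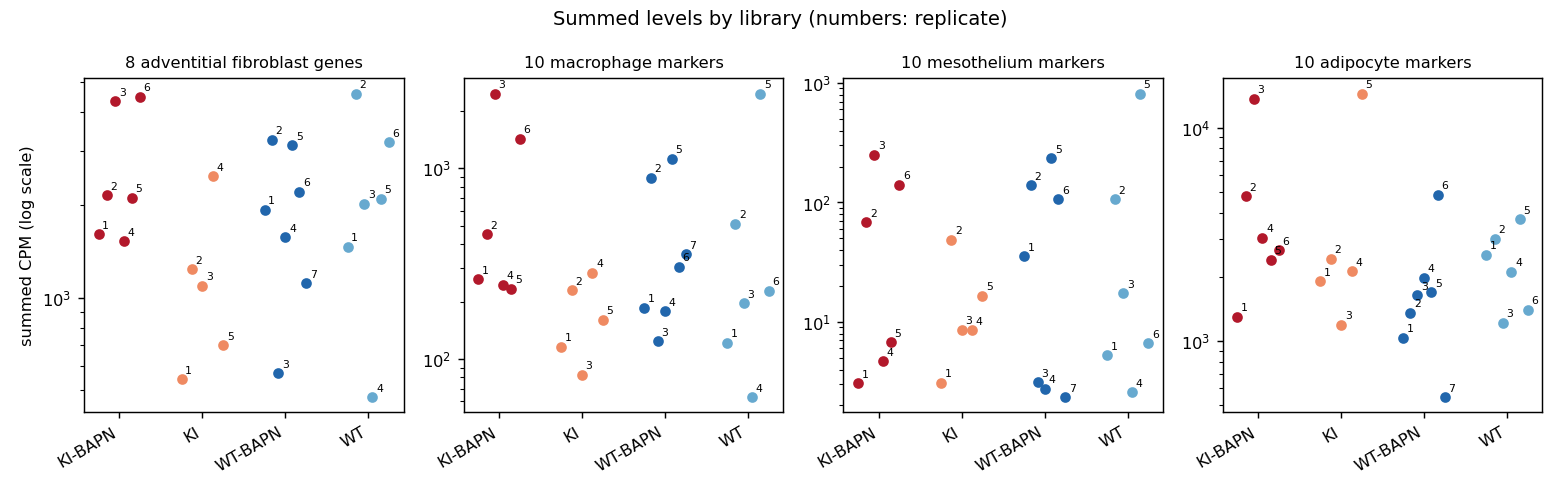
Summed CPM, on log axes, of the 8 adventitial fibroblast genes and of 10 macrophage, 10 mesothelium and 10 adipocyte markers, with 1 point per library numbered by replicate. Replicates 3 and 6 are highest in the first 3 panels among the ATAD3A-KI-BAPN (KI-BAPN) libraries. WT replicate 5, the library with airway markers, has the highest mesothelium sum, 815.1 CPM. Its mean log2 CPM of these markers, 2.90, is below that of WT-BAPN replicate 5, 4.14.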

How the data were processed

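Poly(A)-selected RNA of mouse aorta, from the ascending part to the abdominal bifurcation, was sequenced in 24 libraries. Values deposited by the authors are raw read counts, 1 row per gene and 1 column per library. The submitters' processing notes name Trim Galore, FastQC, HISAT2, DESeq2, GRCm38 and mm10. Which program counted the reads, with what strand setting and version, is not given in the sources used here. Without strand information, reads of overlapping antisense genes cannot be told apart. Of 21902 genes with an identifier in GENCODE M21, 565 had the same start and end there, so coordinates are printed as deposited and their build is open. Codes in the labels tied every count column to its sample, and 0 columns were left unmatched.

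The fit used edgeR 4.0.16 (R 4.3.3) with a mean for each group, all 24 libraries, TMM factors, the filterByExpr filter and robust quasi-likelihood F tests. It tested 14216 genes, at a Benjamini-Hochberg adjusted p threshold of 0.05. Standard errors were taken from the F statistic, and 95% intervals from the t distribution with the fit's degrees of freedom. The log2 CPM used for scores and correlations has a prior count of 2. Replicates are separate samples per the labels, and no pair of libraries of the same group agreed within counting noise. Pairs across groups were not checked for this. The members, gene lists and named genes were chosen with earlier results of these data known. Named genes are the 8 members, the called or else up to 4 smallest-p genes of each list described, and the genes of highest correlation. Bgn, Fmod, Atad3a and the antisense genes are named outside that rule and the first pair was chosen after their values were seen.

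The steps were tested on simulated data. Alternatives were DESeq2 1.42.0, voom with quality weights from limma 3.58.1, other size factors, filters and thresholds, a fit of only the groups compared, a block for the replicate number, a mesothelium score as a covariate, sets of libraries left out and each library left out. An adipocyte score as a covariate was added after seeing the data. Figures were drawn with matplotlib 3.10.9.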

Additional observations from a re-analysis of the deposited data

Results flagged for a closer look

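In each of the 4 groups, the highest and lowest library of each of the 8 genes was checked for a gap from the others that was large for the group's range. Of 32 such checks 3 were positive. The cut-off gives about 1 in 20 for independent, normally distributed values. CPM of genes that vary together need not meet this, so the rate by chance is not known here. Pdgfra stood apart in ATAD3A-KI-BAPN replicate 6, at 137.2 CPM, where the other 5 libraries had 42.7 to 73.9 CPM. This is also the library with the highest Clec3b, Pi16 and Dpt levels of the 24. Lum stood apart in WT-BAPN replicate 5, at 816.9 CPM, where the other 6 libraries had 58.0 to 350.5 CPM. Pi16 stood apart in ATAD3A-KI replicate 4, at 203.2 CPM, where the other 4 libraries had 30.9 to 75.8 CPM.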

How the results depend on the processing

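Cd248 on BAPN in WT kept its direction in every fit, with log2 changes of 0.94 to 1.18. Of 1112 refitted member values, 1060 kept direction and side of the threshold, 45 changed sign, 6 lost and 1 gained a call. The causes were not tested.

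Genes called on BAPN in WT numbered 1493 with DESeq2, 4227 with voom, 6 at a threshold of 0.01 (members called 0), 1831 at 0.10, and 1524 with the 4 other-tissue libraries left out. On BAPN in ATAD3A-KI they numbered 198 with DESeq2 (members called 1), 3 with the mesothelium score, 3 without those 4 libraries, and 0 with voom, with no filter, with only the groups compared, at 0.01 and without the 3 libraries rich in mesothelium. Between genotypes on water they numbered 480 with DESeq2, 270 with voom, 7 with no filter, 8 with only the groups compared, 2 at 0.01, 196 at 0.10, 126 with the mesothelium score and 1 without the 4 libraries. Between genotypes on BAPN DESeq2 called 28 and voom 3, and for the interaction 14 and 4. Leaving out 1 library gave 327 to 1609 genes on BAPN in WT (0 to 1 members), 0 to 143 on BAPN in ATAD3A-KI and 1 to 293 between genotypes on water. The genes most like the 8 shared 5 of 10 with group means subtracted and 3 without the 4 libraries.

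Sign changes of uncalled values were as follows. Between genotypes on BAPN, without the 3 libraries rich in mesothelium (all ATAD3A-KI-BAPN, so a lower difference was built in), Pdgfra had -0.24, Cd248 -0.20, Lum -0.59, Dcn -0.015, Pi16 -0.58, Dpt -0.34 and Serpinf1 -0.15. With the adipocyte score Lum had -0.030 and Serpinf1 -0.023, and with voom Serpinf1 had -0.028. Leaving out 1 library gave Pdgfra -0.039 to 0.39, Cd248 -0.0029 to 0.39, Lum -0.16 to 0.66 and Serpinf1 -0.12 to 0.12. On BAPN in WT Pdgfra had -0.021 with the mesothelium score and -0.18 to 0.24 with 1 library left out, and Serpinf1 -0.33 to 0.050. Without the 4 libraries Serpinf1 on BAPN in ATAD3A-KI had -0.24 and Pdgfra between genotypes on water 0.065. The interaction for Cd248 was -0.013 with voom, -0.010 with the mesothelium score, -0.0039 with upper-quartile factors, -0.41 without the 3 libraries and -0.22 to 0.23 with 1 left out.

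Replicate numbers were not used as pairs in the main fit, and the labels do not say whether they are pairs. Same-numbered libraries had deviations from their group means with r of -0.52 to 0.57 in 33 pairs, 16 of them over 0.1. Between WT and WT-BAPN, replicates 1 to 5 had r of 0.196 to 0.571, and replicate 6 had -0.111. With the replicate block 0 genes were called on BAPN in ATAD3A-KI, Cd248 on BAPN in WT had 1.10 (edgeR adjusted p = 0.0449), Serpinf1 between genotypes on BAPN -0.0555 and the Cd248 interaction -0.022.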
